A study of Homo sapiens with 30 samples.

Results

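The data described here are the mRNA levels of 45 genes of DNA replication in 2 human prostate cancer cell lines. The genes were listed by name from their known role in replication, with earlier results of these data known. Each was looked up by its symbol in the 2 kinds of deposited values. All 45 were found among the 23710 gene symbols with read counts and among the 23616 with FPKM (fragments scaled to transcript length and sequencing depth). By role, the set holds 11 genes of origin licensing, 8 of origin firing, 5 of the sliding clamp and its loader, 7 of the polymerases and primase, 3 of Okazaki fragment processing and single-strand binding, 5 of nucleotide supply, 4 G1/S regulators and 2 of chromatin assembly.

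RNA-seq was performed on 30 samples, with 3 replicates in each of 10 conditions. V16D is a castration-resistant derivative of LNCaP cells, and MR49F is an enzalutamide-resistant line of the same lineage, so resistant and non-resistant cells are each represented by a single line. In full fetal bovine serum, V16D and MR49F cells received 0.1% DMSO vehicle or 10 μM enzalutamide, an antiandrogen, for 24 h. In charcoal-stripped serum, which is depleted of androgens, MR49F cells were kept for 72 h and then were treated for 24 h with vehicle, 10 μM enzalutamide, 1 nM dihydrotestosterone (DHT) or 500 nM of the BET bromodomain inhibitor JQ-1, or with JQ-1 on top of either of the other compounds. Both lines had been without enzalutamide for 96 h when treatment began, and V16D cells were not studied in stripped serum. The study calls its replicates biological and pooled 2 wells for each, while the labels speak of plating in triplicate. Passages or days that would separate the replicates are not given, so p-values measure the spread among these samples.

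Replication origins are licensed in G1, when the origin recognition complex, CDC6 and CDT1 load the MCM helicase onto DNA, and geminin (GMNN) later blocks reloading. The kinase CDC7 with DBF4, together with CDC45 and the GINS complex, then turns the helicase into a moving fork, at which the clamp PCNA, its loader RFC and the polymerases copy the DNA from nucleotides supplied by ribonucleotide reductase (RRM1, RRM2) and thymidylate synthase (TYMS). Transcription of many of these genes is driven by E2F factors as cells pass from G1 into S phase, and in LNCaP-derived cells androgen promotes that passage. BET proteins, which JQ-1 displaces from acetylated chromatin, act with sequence-specific factors in transcription. In RNA from whole cultures, fewer cycling cells and less RNA per cell cannot be told apart.

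Because the set moved largely as a group, as described below, the promoters were searched for 2 forms of the E2F site, TTTGGCGC and TTTCGCGC, on both strands. Promoters, from 250 bases before to 50 after the start of transcription, were taken from RefSeq on GRCh38.p14, which is not the build of the deposited values, and 38 of the 45 genes had an entry. At least 1 of the 2 forms was present in 12 of these 38 promoters (31.6%), against 322 of all 27305 promoters (1.18%). TTTGGCGC was found in 8 (21.1%, against 0.659% of all) and TTTCGCGC in 5 (13.2%, against 0.546%). The pentamer CCAAT, read by NF-Y, was found in 19 (50%, against 35.7%), and the element TTTGAA, known from genes of G2 and mitosis, in 2 (5.26%, against 15.4%). A match says only that these letters are present. The 12 genes with an E2F-type match were MCM2, MCM3, MCM6, MCM7, CDC6, GINS1, POLA1, POLA2, POLE, POLE2, E2F1 and E2F2. With DHT in stripped serum, the median change of the genes with a match was 0.84 on the log2(FPKM + 1) scale, and that of the 26 genes with a promoter and no match was 0.83. For 3 of them, a window of 100 bases is shown from 5′ to 3′ on the strand of the gene, with the matches in capitals. It runs from base -100 to -1 relative to the transcription start in E2F1, from -165 to -66 in MCM6 and from -183 to -84 in POLA1. In MCM6 the 2 forms overlap on opposite strands, and in POLA1 the form TTTGGCGC lies on the other strand. These were the promoters with a match in a window that no annotated transcript covers.
E2F1, the G1/S transcription factor (chr20:33686386-33686485, minus strand): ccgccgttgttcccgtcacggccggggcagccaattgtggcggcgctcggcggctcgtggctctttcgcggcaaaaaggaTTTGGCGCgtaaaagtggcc
MCM6, a subunit of the replicative helicase (chr2:135876509-135876608, minus strand): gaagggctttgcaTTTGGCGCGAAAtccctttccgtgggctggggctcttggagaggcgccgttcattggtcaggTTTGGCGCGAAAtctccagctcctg
POLA1, the catalytic subunit of the priming polymerase (chrX:24693735-24693834, plus strand): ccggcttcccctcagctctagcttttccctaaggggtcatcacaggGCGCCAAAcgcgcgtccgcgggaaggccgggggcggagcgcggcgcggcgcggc

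The share of reads counted on genes differed between the sera. Reads counted on genes numbered 13170504 to 21154962 per sample in full serum and 982130 to 1813262 in stripped serum. They were 72.97% to 77.81% and 5.13% to 7.66% of the reads counted on a gene, on none or as ambiguous. Reads on no gene numbered 3418560 to 5941473 in full and 14813917 to 24126651 in stripped serum. Reads on the 45 genes were 58677 to 91028 and 1032 to 3649 per sample. How the counting treated strand is not given in the sources used here, and counts in stripped serum were set against FPKM. Their excess over FPKM was at least 1 on the log2 scale for 20% of the genes with an exon that overlaps a gene on the other strand (median 0.204) and for 7.01% of other genes (median -0.045). Of the 45 genes, 10 have such an overlap, and 2 of these had the excess. It was found for TYMS (2.63, overlapping ENOSF1 by 719 bases), CCNE2 (1.87, overlapping INTS8 by 1628 bases), GINS3 (1.80) and POLE2 (1.39), the last 2 with no annotated overlap. The cause was not tested. Counts in stripped serum were therefore tested beside FPKM, which the authors estimated separately. MR49F vehicle replicate 1 in full serum stood apart, with a chi-square per degree of freedom of 9.27 and 10.9 against the other replicates, which differed from each other by 2.16. All 10 prostate epithelial markers, among them KLK3, EPCAM and KRT8, averaged at least 1 FPKM in each condition, and the 10 markers of fibroblasts, blood, endothelium and muscle summed to 1.26 to 7.91 FPKM per sample. KLK3, a classical androgen-induced gene, changed by -1.89 on the log2 scale with enzalutamide in V16D cells and by -0.09 in MR49F cells in full serum (counts). In stripped serum it changed by 1.5 with enzalutamide, 2.15 with DHT and -5.15 with JQ-1 (FPKM), and TMPRSS2, another androgen-induced gene, by 1.93, 2.82 and -1.39.

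Within stripped serum, the summed level of the replication genes was lowest in the conditions with JQ-1 and highest with DHT, and listed levels were higher in full serum. Summed over the 45 genes, the level was 1573 ± 14.2 FPKM (SD, n = 3) in V16D and 1324 ± 58.8 in MR49F cells with vehicle in full serum, and 382 ± 13.7 in MR49F cells with vehicle in stripped serum. In stripped serum it was 632 ± 17.8 with enzalutamide, 746 ± 20.3 with DHT, 298 ± 4.0 with JQ-1, 306 ± 2.62 with enzalutamide and JQ-1, and 293 ± 5.31 with DHT and JQ-1. The 3 conditions with JQ-1 lay within 288 to 309 FPKM in all 9 samples, below each of the other 9 samples in stripped serum, and samples of vehicle, enzalutamide and DHT did not overlap. Serum and experiment cannot be told apart, and the FPKM of all genes summed to 509791 to 858576 per sample in full serum and 384910 to 423932 in stripped serum, so levels between the sera are not on one scale and were not tested. In stripped serum the median gene stood at 2.0 times its vehicle level with DHT, 1.72 times with enzalutamide and 0.681 times with JQ-1.

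**Figure D1:**
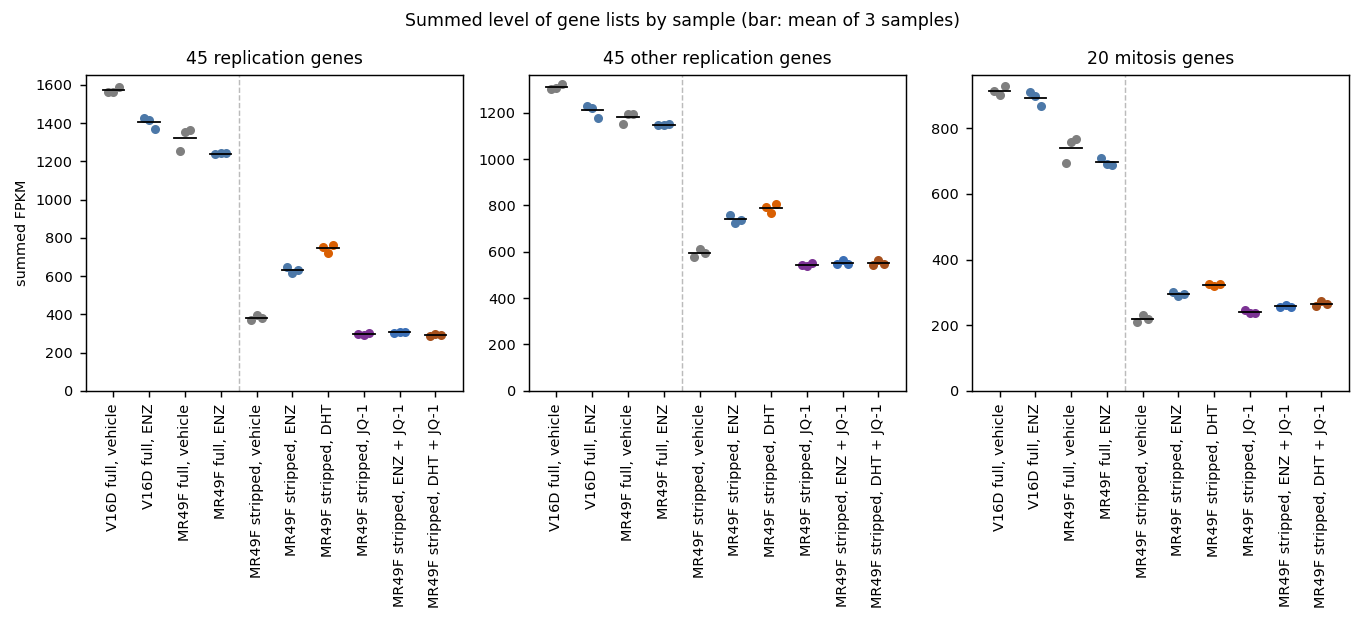
FPKM summed over 45 replication genes, 45 other replication genes and 20 mitosis genes in each sample (points, y axis in FPKM from 0) of the 10 conditions, with the mean of 3 samples as a bar and a dashed line between the sera. For the 45 genes, the 9 samples with JQ-1 lie between 288 and 309 FPKM, and the 3 samples with DHT between 723 and 762.

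PCNA, the sliding clamp, had the highest level of the set in stripped serum with vehicle (33.0, 34.4 and 37 FPKM) and E2F2 the lowest (0.553, 0.359 and 0.335 FPKM). Licensing genes had a median of 7.79 FPKM there, from 1.97 for ORC1 to 22.4 for MCM7. Firing genes were lower, with a median of 2.81 FPKM. Among the 6 conditions in stripped serum, 40 of the 45 genes had their highest mean with DHT. The exceptions were POLE2, RRM1, DUT and CCNE2, highest with enzalutamide, and CHAF1B, highest with JQ-1. The lowest mean was in a condition with JQ-1 for 39 genes and with vehicle for 6 (GMNN, CDC7, DBF4, GINS4, PCNA and LIG1). In full serum, 31 genes were highest in V16D cells with vehicle. For DUT and CCNE2 the highest mean was in MR49F cells with enzalutamide, as it was for TK1.

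**Figure D2:**
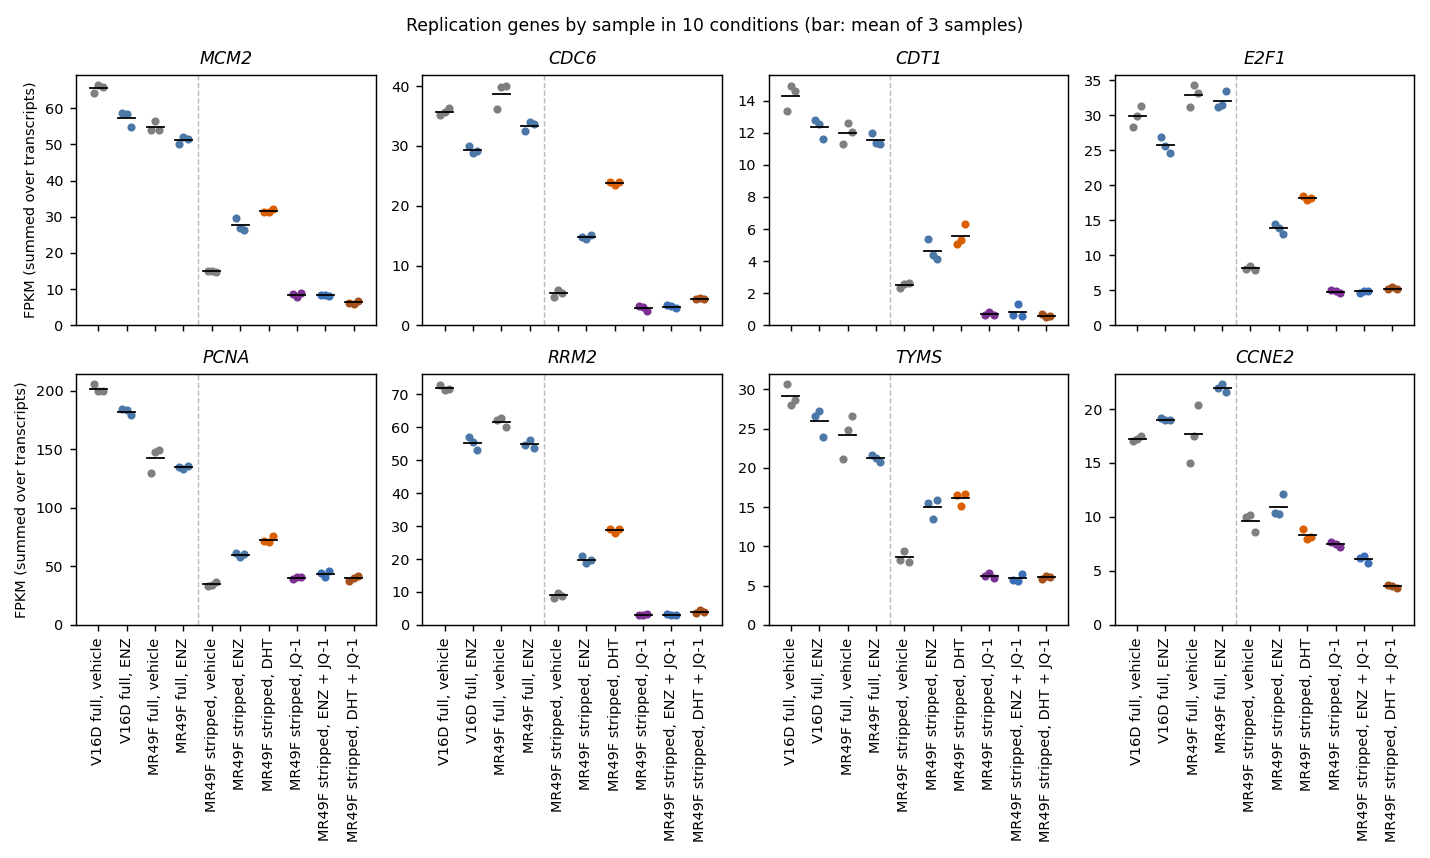
FPKM in each sample (points) of 8 genes in the 10 conditions, with the mean of 3 samples as a bar, y axes from 0 and a dashed line between full and stripped serum (ENZ, enzalutamide). In stripped serum CDC6 lies at 23.5 to 24.0 FPKM with DHT and at 4.78 to 5.86 with vehicle, whereas CCNE2 is not raised by DHT.

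Enzalutamide treatment of V16D cells in full serum lowered most replication genes by a small amount. Of the 45 genes, 36 fell, 1 rose and 8 did not pass the test, with a median log2 fold change of -0.20 against 0.0038 over all genes tested. Of all genes tested, 37.5% were called, 19.3% as lower. All 8 firing genes fell, as did 10 of 11 licensing genes, 4 of 5 clamp and loader genes, 5 of 7 polymerase and primase genes and 4 of 5 genes of nucleotide supply.

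RRM2, the regulated subunit of ribonucleotide reductase, fell most. Its depth-scaled count (CPM) was 320.1, 312 and 312 with vehicle and 244, 236 and 228 with enzalutamide. Every treated sample was below every vehicle sample, with a log2 fold change of -0.41 (SE 0.026, adjusted p = 4.81e-48, edgeR). The flap endonuclease FEN1 was at 150.2, 153 and 152 CPM with vehicle and 120.3, 115 and 119 with enzalutamide, also without overlap (-0.36, SE 0.032). Log2 fold changes were -0.34 for CDC45, -0.34 for the primase PRIM1, -0.32 for CDC6, -0.31 for the clamp loader subunit RFC3, -0.25 for CDT1, -0.25 for E2F1, -0.25 for TYMS, -0.23 for MCM2, -0.18 for PCNA and -0.14 for the chromatin assembly subunit CHAF1B. No gene of the set changed by as much as 2-fold. CCNE2, which encodes the S-phase cyclin E2, rose from 57.2, 56.7 and 57.8 to 61.4, 62.0 and 61.1 CPM (0.10, adjusted p = 0.0485, edgeR), a call that was lost in every count fit tried as an alternative and without any single replicate. MCM6, POLE, POLE2, RFC5, RPA2, TK1, E2F2 and CHAF1A did not pass the test. When each replicate was left out in turn, 32 of the 37 calls were kept every time.

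In MR49F cells in full serum, fewer of these genes passed the test with enzalutamide, and most estimates were below 0. Of the 45, 14 fell, 1 rose and 30 did not pass the test, with a median log2 fold change of -0.13 against 0.0095 over all genes, of which 8.48% were called, 3.86% as higher and 4.62% as lower. The fall was called for 5 licensing genes, 3 firing genes and both chromatin assembly genes, and for no gene of the clamp and loader or of the polymerases and primase. DBF4, the activator of the CDC7 kinase, was at 78.3, 65.5 and 63.6 CPM with vehicle and 52.5, 51.2 and 48.9 with enzalutamide. The groups did not overlap, and MR49F vehicle replicate 1 was the highest sample (-0.44, SE 0.074, adjusted p = 0.0048, edgeR). CHAF1B changed by -0.38 on the log2 scale, the E2F family repressor E2F8 by -0.36, MCM5 by -0.31, TYMS by -0.26, CDC6 by -0.25, FEN1 by -0.25 and RRM2 by -0.21. Estimates for MCM2 (-0.14), PCNA (-0.12), CDT1 (-0.10) and E2F1 (-0.08) did not pass. CCNE2 again ran against the rest, at 51.9, 56.7 and 65.8 CPM with vehicle and 71.4, 72.6 and 69.5 with enzalutamide (0.30, SE 0.076, adjusted p = 0.0366, edgeR). All 3 treated samples lay above all vehicle samples. The number of calls rested on single libraries. Of the set, 28 genes were called (26 lower) without vehicle replicate 1, the library that stood apart. Without vehicle replicate 2 or enzalutamide replicate 2 there were 8, and without enzalutamide replicate 1 or replicate 3 there were 4. DBF4, FEN1, E2F8 and CHAF1B were called whichever replicate was left out. Limma on FPKM also called 4 genes.

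The response to enzalutamide differed between the lines for 2 of the 45 genes, where 6.95% of all genes tested were called, 4.19% with the higher and 2.76% with the lower value in MR49F cells. The dUTPase gene DUT was at 71.9, 75.1 and 70.9 CPM with vehicle and 68.2, 66.9 and 65.0 with enzalutamide in V16D cells, and at 46.9, 65.7 and 72.0 and 75.8, 76.1 and 78.8 in MR49F cells. The lowest of these 12 samples was MR49F vehicle replicate 1, without which the difference between the lines was 0.29. With all samples, the effect in MR49F minus that in V16D cells was 0.44 on the log2 scale (SE 0.12, adjusted p = 0.0348, edgeR). For RRM2 it was 0.19 (SE 0.056, adjusted p = 0.042, edgeR). The 2 calls depended on the libraries in the fit: there were 0 without any single enzalutamide replicate of MR49F cells, without V16D enzalutamide replicate 2 or 3 or without any single V16D vehicle replicate, 1 without V16D enzalutamide replicate 1, 3 without MR49F vehicle replicate 1 and 7 without MR49F vehicle replicate 3. For the other 43 genes a difference between the lines was not detected, with estimates of 0.075 for MCM2, 0.059 for CDC6, 0.14 for CDT1, 0.16 for E2F1, 0.048 for PCNA, -0.021 for TYMS and 0.19 for CCNE2.

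Between the lines themselves, with vehicle in full serum, 27 of the 45 genes were lower and 5 higher in MR49F than in V16D cells, with a median log2 difference of -0.24 against -0.0049 over all genes, of which 63.7% were called. The share of these genes called, 32 of 45, was thus close to that of all genes, and 31.8% of all genes were called lower. All 5 clamp and loader genes and 7 of 8 firing genes were lower. CDC7, the kinase that triggers origin firing, was at 118, 117 and 114 CPM in V16D and 58.4, 57.2 and 55.4 in MR49F cells. All MR49F samples lay far below all V16D samples (-1.03, SE 0.049, adjusted p = 9.05e-09, edgeR). RFC3 (-1.01) and POLE2 (-1.0) differed by about as much, RRM1 by -0.42 and E2F8 by -0.57. Smaller differences were found for PCNA (-0.49), TYMS (-0.28), CDT1 (-0.26), MCM2 (-0.25) and RRM2 (-0.21), and CCNE2 did not pass the test (0.017). Geminin went the other way, from 34.9, 34.1 and 35.1 CPM in V16D to 58.8, 56.0 and 58.7 in MR49F cells (0.73, SE 0.054), as did FEN1 (0.20), POLA1 (0.15), E2F1 (0.14) and CDC6 (0.11). The calls of POLA1, E2F1 and CDC6 were each lost without at least 1 of the 6 samples. Without MR49F vehicle replicate 1, 30 genes were called lower and 5 higher.

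In charcoal-stripped serum the same drug raised these genes in MR49F cells. By FPKM, 42 of the 44 genes tested rose with enzalutamide and none fell, with a median change of 0.67 on the log2(FPKM + 1) scale against -0.013 over all genes, of which 38.7% were called, 19.3% as higher. By counts, which were fewer, 24 of 42 genes tested rose and none fell, with a median log2 fold change of 0.70 against -0.0012 over all genes, of which 7.26% were called, 4.38% as higher. All 11 licensing genes rose by either measure. By counts, ORC1 and CDC45, both called higher, were too low to be tested between JQ-1 and vehicle. They entered by counts through samples with enzalutamide, so these 2 calls rest on the group where they were high. E2F2 was tested by neither, and GINS2 and E2F8 were not tested by counts.

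CDC6, the licensing factor (chromosome 17, 38444131 to 38460909 on GRCh37), was at 4.78, 5.86 and 5.46 FPKM with vehicle and 14.8, 14.4 and 15.1 with enzalutamide. Each treated sample was more than 2 times the highest vehicle sample (1.31, SE 0.064, adjusted p = 1.41e-06, limma). GMNN (chromosome 6, 24775159 to 24786327) was at 7.70, 10.2 and 8.99 and 23.6, 24.4 and 20.8 FPKM (1.27, SE 0.091), again with the groups far apart. RRM2 (chromosome 2, 10260825 to 10351851) was at 8.28, 9.75 and 8.84 and 20.9, 18.8 and 19.6 FPKM (1.06, SE 0.063). In this gene too, every treated sample exceeded every vehicle sample. By counts the log2 fold changes were 1.41 for CDC6, 1.5 for GMNN and 1.46 for RRM2. The helicase-associated factor MCM10 changed by 1.14 by FPKM and FEN1 by 1.04. Other called changes by FPKM were those of RFC3 (0.86), MCM2 (0.85), PCNA (0.77), TYMS (0.74), the polymerase subunit POLA2 (0.71), E2F1 (0.70), CDT1 (0.67) and the chromatin assembly subunit CHAF1A (0.48). CCNE2 (0.17 by FPKM, -0.15 by counts) and POLE (0.10 and 0.13) did not pass the test by either measure. By FPKM 40 of the 42 calls were kept without any single replicate. By counts there were 13 calls without vehicle replicate 1, and DESeq2 called 12.

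The enzalutamide response of MR49F cells differed between the sera for 41 of the 45 genes, all with the larger value in stripped serum (limma on FPKM, all 41 called without any single replicate). Of all genes tested, 34.1% were called, 14.9% in this direction. The difference rests on 2 experiments, and serum and experiment cannot be told apart. For CDC6, FPKM were 36.1, 39.8 and 40.0 with vehicle and 32.5, 34.0 and 33.7 with enzalutamide in full serum. All 3 treated samples were below the vehicle samples there, the opposite of their order in stripped serum, and the difference in log2 change was 1.52 (SE 0.086, adjusted p = 5.63e-07, limma). Differences of 1.35 for GMNN, 1.25 for FEN1, 1.23 for RRM2, 1.20 for MCM10, 0.95 for MCM2, 0.91 for TYMS, 0.87 for RFC4, 0.85 for PCNA, 0.84 for POLE2, 0.73 for E2F1, 0.71 for CDT1 and 0.68 for CHAF1A were called as well. POLE (0.10), TK1 (0.23), DUT (-0.13) and CCNE2 (-0.14) were not. The median difference over the 45 genes was 0.73, against -0.055 over all genes.

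**Figure D3:**
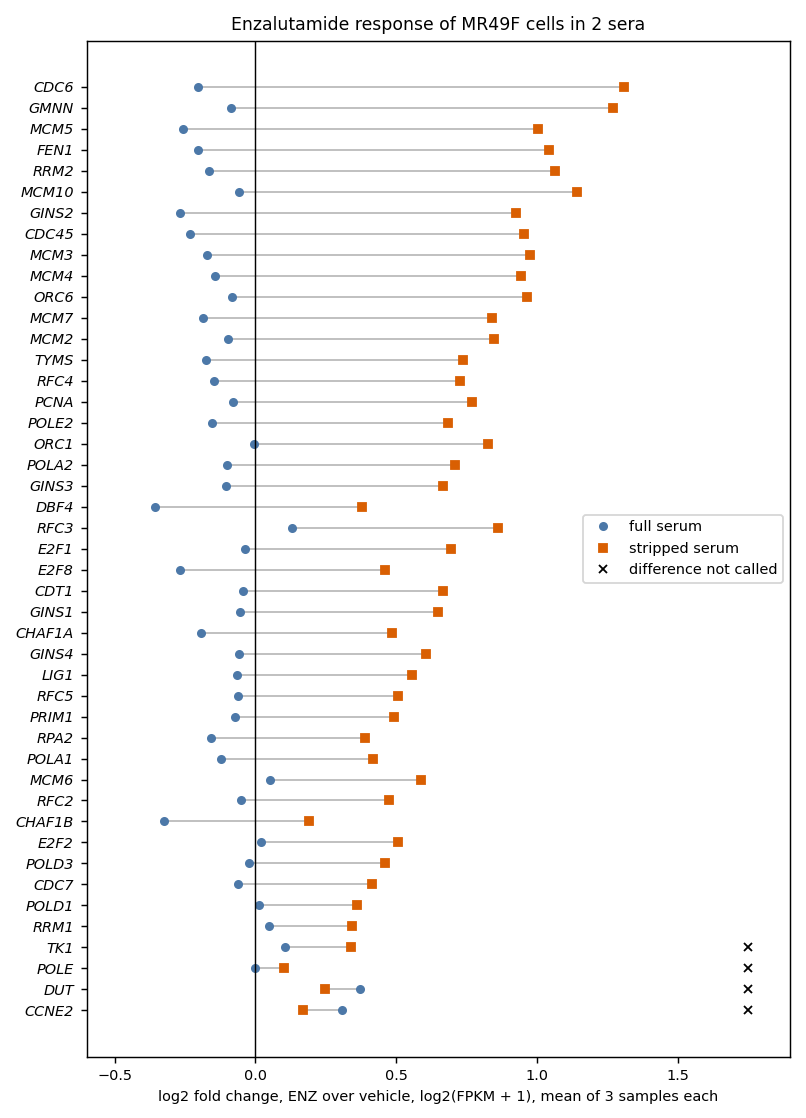
Change with enzalutamide in MR49F cells, as the difference of mean log2(FPKM + 1) between 3 treated and 3 vehicle samples (x axis), for each of the 45 genes (rows, ordered by the difference between sera) in full (circles) and stripped serum (squares). CDC6 is at the top with a difference of 1.52, and the 4 genes marked with a cross did not pass the test of the difference.

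DHT raised nearly the whole set in stripped serum. By FPKM, 42 of the 45 genes rose and 1 fell, with a median change of 0.82 against -0.083 over all genes, of which 72.1% were called, 28.9% as higher. By counts, 31 of 43 genes tested rose and 1 fell, with a median of 1.06 against -0.012 over all genes, of which 37.5% were called, 19.4% as higher. Every licensing gene rose by both measures, and all 8 firing genes, all 5 clamp and loader genes and all 7 polymerase and primase genes rose by FPKM. E2F2 passed the filter on low FPKM only through its DHT samples. By counts, ORC1, CDC45, GINS2 and E2F8, all called higher, were too low to be tested between JQ-1 and vehicle. They entered by counts through samples with DHT, so their calls by counts rest on the group where they were high.

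With DHT, CDC6 was at 23.9, 23.5 and 24.0 FPKM, 4.44 times its vehicle mean. These 3 samples were close together and far above the vehicle samples given above (1.97 by FPKM, SE 0.062, adjusted p = 2.6e-08, limma; 2.45 by counts, SE 0.20). GMNN reached 37.7, 34.4 and 37.6 FPKM (1.92, SE 0.086), and RRM2 reached 29.2, 28.0 and 29.0 FPKM (1.58, SE 0.057). In full serum with vehicle, GMNN was listed at 41.1, 39.8 and 41.7 FPKM and RRM2 at 62.1, 62.9 and 60.2. Levels in the 2 sera are not on one scale, so these values cannot be ranked against those with DHT. Among firing genes CDC45 changed most by FPKM (1.47). FEN1 changed by 1.56, E2F1 by 1.07, PCNA by 1.04, MCM2 by 1.03, CDT1 by 0.90, POLA2 by 0.89 and CHAF1A by 0.71. CCNE2 was the exception, at 9.98, 10.2 and 8.61 FPKM with vehicle and 8.93, 7.92 and 8.15 with DHT. The groups overlapped (-0.18, adjusted p = 0.0415, limma), and the call was lost when FPKM were rescaled by the median ratio and was kept in 2 of 6 fits that left out 1 sample. By counts CCNE2 fell by 0.60 on the log2 scale. TYMS had a change of 0.84 by FPKM and -0.005 by counts, and POLE2 of 0.63 and -0.13, so for these 2 genes, which had an excess of counts in stripped serum, the measures disagreed. DUT (0.041) and CHAF1B (0.0073) did not pass the test by FPKM.

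**Figure D4:**
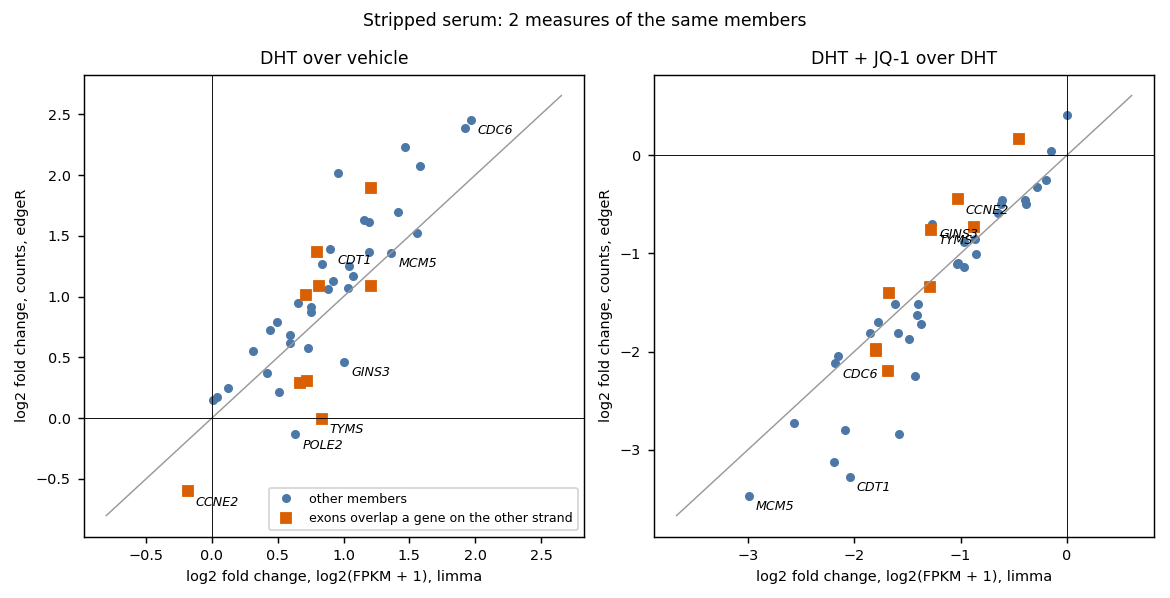
Log2 fold changes of the genes tested by both measures in stripped serum, from counts (y axis, edgeR) and from log2(FPKM + 1) (x axis, limma), for DHT over vehicle and for DHT with JQ-1 over DHT, with squares for genes whose exons overlap a gene on the other strand and a line of equal values. For DHT, 41 of 43 genes have the same sign, with TYMS and POLE2 below 0 by counts alone.

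Set against each other at the doses used, DHT gave the higher level for most genes that differed. By FPKM, 24 of the 45 genes were higher and 3 lower with DHT than with enzalutamide, where 57.4% of all genes were called, 20.9% as higher. When FPKM were rescaled by the median ratio, 34 were higher and 1 lower. By counts, 11 of 44 genes tested were higher and none lower, where 19.4% of all genes were called, 10.3% as higher and 9.13% as lower, and DESeq2 called 6. CDC6 had the largest difference by both measures (0.66 by FPKM, SE 0.04; 1.04 by counts, SE 0.16), and its 3 DHT samples all lay above its 3 enzalutamide samples. The differences by FPKM were 0.65 for GMNN, 0.52 for RRM2, 0.52 for FEN1, 0.51 for CDC45, 0.38 for E2F8, 0.37 for E2F1, 0.33 for POLA1, 0.27 for PCNA, 0.23 for CHAF1A and 0.19 for MCM2. CDT1 (0.23, unadjusted 95% interval 0.015 to 0.44) and TYMS (0.10, -0.05 to 0.25) did not pass the test. CCNE2 (-0.35), DUT (-0.21) and CHAF1B (-0.18) were lower with DHT. The calls of CHAF1A, CHAF1B and DUT were kept in 5, 2 and 3 of 6 fits that left out 1 sample. The ligands were compared at a single dose each, 1 nM and 10 μM.

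JQ-1 without a ligand lowered most of the set below its vehicle level in stripped serum by FPKM, though not by counts, and raised a few genes. By FPKM, 29 of 43 genes tested fell and 6 rose, with a median change of -0.41 against -0.060 over all genes, of which 75.1% were called, 42.6% as lower. By counts, 16 of 39 genes tested fell and 4 rose. Of all genes, 46.6% were called, 23.9% as lower and 22.8% as higher, so the share called in any direction, 20 of 39, was near that of all genes. MCM10, CDT1 and POLE2 passed the filter on FPKM only through their vehicle samples. By counts, MCM5, MCM10 and CDT1, all called lower, were too low to be tested between conditions with JQ-1. They entered by counts through vehicle samples. MCM5, a helicase subunit (chromosome 22, 35796127 to 35821424), was at 7.41, 7.90 and 8.06 FPKM with vehicle and 2.1, 1.69 and 1.91 with JQ-1. All treated samples lay far below all vehicle samples (-1.60, SE 0.063, adjusted p = 1.47e-07, limma). RRM2 was at 2.91, 3.11 and 3.18 FPKM with JQ-1 (-1.29, SE 0.061), also without overlap. CDT1 changed by -1.03, the GINS subunit GINS1 by -1.01, CHAF1A by -0.92, PRIM1 by -0.88, MCM2 by -0.75, CDC6 by -0.71, E2F1 by -0.65, RFC4 by -0.65, FEN1 by -0.65, TYMS by -0.40 and CCNE2 by -0.32. The 6 that rose were GINS4 (0.60), the DNA ligase LIG1 (0.38), CDC7 (0.26), CHAF1B (0.24), PCNA (0.21) and RFC2 (0.10). GINS4 was at 1.97, 1.96 and 1.89 FPKM with vehicle and 3.51, 3.57 and 3.33 with JQ-1, with no overlap. The other 3 GINS subunits fell by FPKM, whereas by counts GINS1 (-0.64) and GINS3 (-0.16) did not pass the test and GINS2 was not tested. By counts, GINS4 (0.84), CDC7 (0.95), LIG1 (0.63) and PCNA (0.36) rose as well. The calls of RFC2 by FPKM and of PCNA by counts were kept in 1 and 2 of 6 fits that left out 1 sample.

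JQ-1 given with a ligand lowered nearly the whole set relative to the ligand alone. With enzalutamide and JQ-1 against enzalutamide, 41 of 44 genes tested fell by FPKM and none rose. The median on the log2(FPKM + 1) scale was -1.12 against -0.083 over all genes (75.7% called, 44.4% as lower). By counts, 30 of 41 fell and none rose (45.1% of all genes called). With DHT and JQ-1 against DHT, all but 2 of the 45 genes fell by FPKM, with a median of -1.29 against -0.054 over all genes (78.8% called, 43.3% as lower). By counts, 37 of 42 fell and none rose (54.7% of all genes called). CDC7 and GINS4 did not pass the test in either comparison by either measure, and DBF4 did not pass with enzalutamide. MCM10, POLE2 and E2F8, and with DHT also CDT1 and E2F2, passed the filter on FPKM only through the samples without JQ-1. By counts, MCM5, MCM10, ORC1, CDT1, CDC45 and GINS1 were too low to be tested between conditions with JQ-1. For DHT the same holds for GINS2, RFC3 and E2F8. These genes entered by counts through samples without JQ-1 and are all among the calls, which thus rest on samples where they were high.

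MCM5 changed most. It was at 18.0, 16.7 and 15.3 FPKM with enzalutamide and 2.03, 1.92 and 2.21 with enzalutamide and JQ-1, and at 21.1, 21.7 and 21.9 with DHT and 1.98, 1.71 and 1.84 with DHT and JQ-1. The 6 samples with a ligand and JQ-1 lay at 1.71 to 2.21 FPKM, close to the 3 with JQ-1 alone (-2.53, SE 0.068, and -2.99, SE 0.049). RRM2 was at 3.30, 3.01 and 3.06 FPKM with enzalutamide and JQ-1 and 3.61, 4.47 and 4.04 with DHT and JQ-1. These values lie under its vehicle samples in stripped serum (-2.33 and -2.57 against the ligand alone). CDC6 was at 3.33, 3.18 and 2.87 and 4.49, 4.54 and 4.40 FPKM (-1.93 and -2.18). POLE2, a subunit of the leading-strand polymerase, changed by -1.32 and -1.29. Against DHT, changes by FPKM were -2.19 for MCM10, -2.15 for MCM2, -2.04 for CDT1, -1.85 for FEN1, -1.79 for CHAF1A, -1.62 for E2F1, -1.48 for RFC3, -1.39 for PRIM1, -1.28 for TYMS, -1.03 for CCNE2 and -0.86 for PCNA. Against enzalutamide they were -1.82, -1.62, -1.61, -1.63, -1.49, -1.34, -1.20, -1.15, -1.20, -0.74 and -0.45 for the same genes in that order. E2F2, listed among the G1/S regulators, was at 1.45, 1.28 and 1.60 FPKM with DHT and at 0.0157, 0.0255 and 0.00900 with DHT and JQ-1. With the pseudocount of 1, its change of -1.26 understates this drop.

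**Figure D5:**
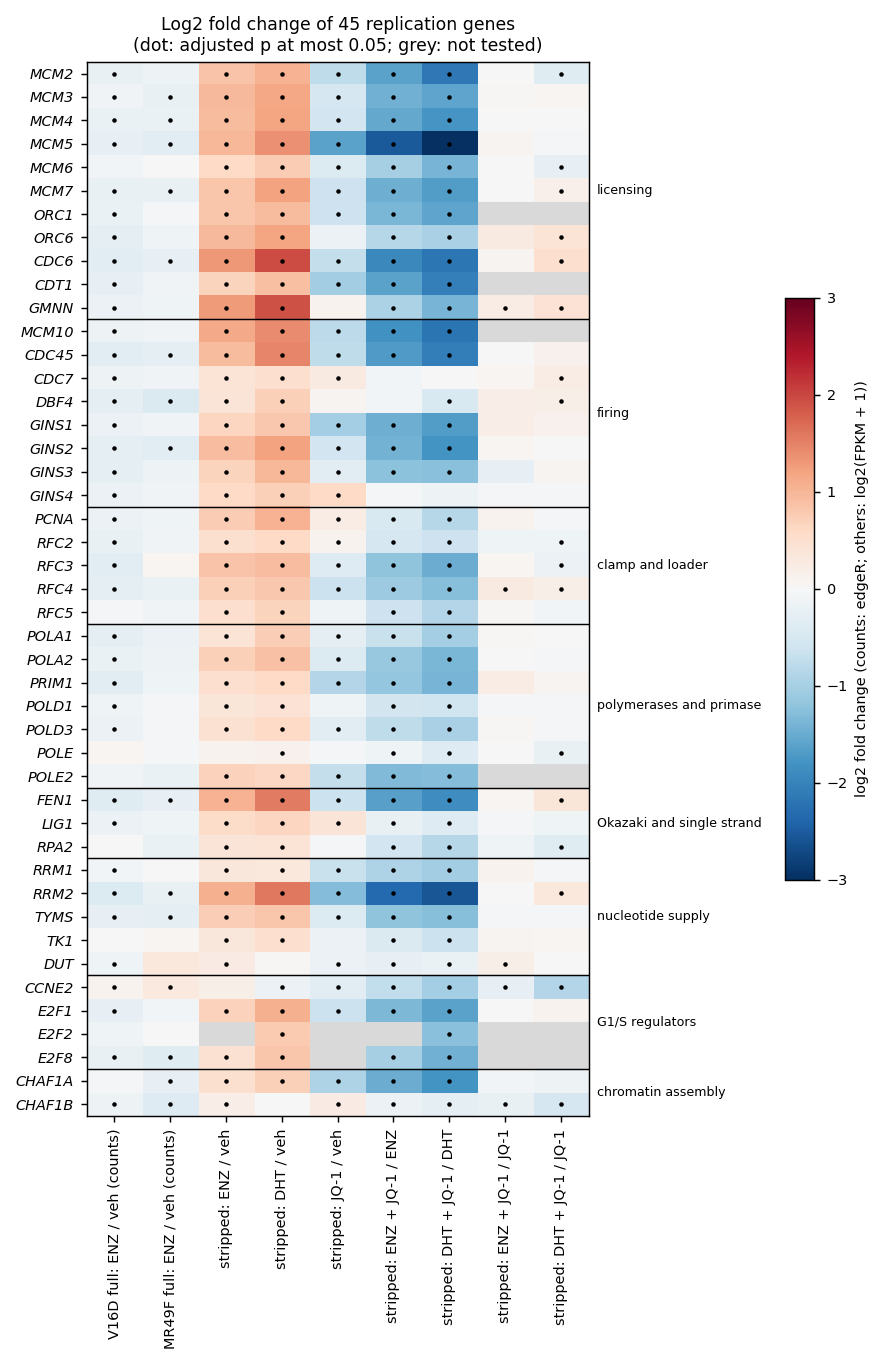
Log2 fold changes (colour, red higher and blue lower, from counts in full serum and log2(FPKM + 1) in stripped serum) of the 45 genes, grouped by role (rows), in 9 comparisons (columns), with a dot where the adjusted p is at most 0.05 and grey where a gene was not tested. The columns for DHT and enzalutamide over vehicle in stripped serum are nearly all red, with 42 genes called higher in each, and those for JQ-1 added to either ligand are nearly all blue, with 43 and 41 called lower.

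The effect of each ligand with JQ-1 was then compared with its effect without JQ-1. A lower value here means an effect that was less positive or more negative with JQ-1. For DHT, the effect was lower in the presence of JQ-1 for 44 of the 45 genes by FPKM (48% of all genes called, 23% in this direction). By counts it was lower for 22 of 43 (12.3% of all genes called in either direction). CCNE2 went from -0.18 without to -0.89 with JQ-1, CHAF1B from 0.0073 to -0.51 and POLE from 0.12 to -0.22, so the effects with JQ-1 on these genes were further from 0. MCM10, ORC1, CDT1, POLE2, E2F2 and E2F8 were too low with JQ-1 for DHT with JQ-1 to be tested against JQ-1 by FPKM, and entered this comparison through the samples without JQ-1. By counts the same holds for 6 of the 22 calls (MCM10, ORC1, CDT1, CDC45, GINS1 and RFC3). DESeq2 called 14. The exception by FPKM was DUT (-0.03). The difference was -1.5 for GMNN (SE 0.12, adjusted p = 1.03e-06, limma), -1.47 for CDC6, -1.40 for MCM2, -1.28 for RRM2, -1.20 for FEN1, -1.09 for RFC3, -1.07 for PCNA, -0.96 for E2F1, -0.95 for POLA2, -0.87 for TYMS, -0.87 for CHAF1A and -0.71 for CCNE2. For enzalutamide, the effect was lower with JQ-1 for 39 of 44 genes by FPKM (19.2% of all genes called, 11.6% in this direction), from -1.22 for CDC6 and -1.05 for GMNN to -0.24 for RRM1. MCM10, ORC1, CDT1, POLE2 and E2F8, which were too low with JQ-1 to be tested there, are among the 39. CCNE2 went from 0.17 to -0.25 and CHAF1B from 0.19 to -0.21. By counts only MCM2 (-1.02), MCM3 (-1.36), MCM4 (-1.23) and GMNN (-1.42) were called, 4 of 43, where 0.895% of all genes were. There were 7 calls without a filter on low counts or without enzalutamide replicate 3, and GMNN was called in 3 of 12 fits that left out 1 sample. The fits share the vehicle and JQ-1 samples, so the values for the 2 ligands are not independent.

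With JQ-1 present, the effects of enzalutamide on these genes were small. Enzalutamide with JQ-1 against JQ-1 alone gave 3 higher genes (GMNN 0.21, RFC4 0.27 and DUT 0.17) and 2 lower (CCNE2 -0.25 and CHAF1B -0.21) of 39 tested by FPKM, with a median of 0.025, where 15.9% of all genes were called. Without JQ-1 replicate 1, 2 or 3 the number of calls was 3, 2 and 1, and without replicate 2 of enzalutamide with JQ-1 it was 2. Of the 5 genes, CCNE2 was the one called whichever sample was left out. By counts only TYMS was called, of 34 genes tested (0.55, adjusted p = 0.00201, edgeR, 4.5% of all genes called, 3.16% as higher), whereas by FPKM its change was -0.066, and the call was lost with DESeq2 and without JQ-1 replicate 1. The unadjusted 95% interval by FPKM was -0.10 to 0.28 for CDC6 and -0.11 to 0.15 for RRM2. Estimates were 0.11 for PCNA, 0.0087 for E2F1 and -0.016 for MCM2, none of which passed the test.

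DHT with JQ-1 against JQ-1 alone gave changes in both directions. By FPKM, 9 genes were higher and 8 lower of 39 tested, a smaller share than the 53.3% called over all genes. When FPKM were rescaled by the median ratio, 12 were higher and 6 lower. CDC6, at 3.17, 3.03 and 2.45 FPKM with JQ-1 and 4.49, 4.54 and 4.40 with DHT and JQ-1, kept the largest rise (0.50, SE 0.073, adjusted p = 0.000643, limma). All 3 samples with both compounds lay above those with JQ-1 alone and still below all vehicle samples. GMNN (0.42), ORC6 (0.40), FEN1 (0.36), RRM2 (0.31), CDC7 (0.23) and RFC4 (0.18) were also higher, RFC4 in 2 of 6 fits that left out 1 sample. Lower were CCNE2 (-0.89), CHAF1B (-0.51), the single-strand binding subunit RPA2 (-0.37), MCM2 (-0.36) and POLE (-0.22), among others. E2F1 (0.10), PCNA (-0.029) and TYMS (-0.038) did not pass the test. CCNE2 was at 7.65, 7.50 and 7.25 FPKM with JQ-1 and 3.67, 3.64 and 3.43 with DHT and JQ-1, the lowest values of this gene in stripped serum. By counts, 3 genes were higher (CDC6 0.93, FEN1 0.67 and DBF4 0.55) and 3 lower (CCNE2, RPA2 and CHAF1B) of 34 tested. This too was a smaller share than over all genes, of which 22.1% were called. By counts CHAF1B was called in 1, DBF4 in 2 and FEN1 in 5 of 6 fits that left out 1 sample, there were 3 calls without JQ-1 replicate 3, and DESeq2 called 2.

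Other genes of replication, 45 in number and mostly fork protection, accessory and checkpoint factors, were listed for comparison, as were 20 mitosis genes. With DHT in stripped serum, 34 of the 45 others rose and 4 fell by FPKM, with a median of 0.38, and 18 of the 20 mitosis genes rose and none fell, with a median of 0.47, against 0.82 for the 45 genes described above. With enzalutamide the medians were 0.34 and 0.36 against 0.67. JQ-1 alone lowered 19 and raised 8 of 41 other replication genes tested, and it lowered 6 and raised 10 of the 20 mitosis genes, whose median was 0.14 against -0.41 for the 45 genes. With DHT and JQ-1 against DHT, 37 of the others fell and 6 rose (median -0.57), and 12 mitosis genes fell and 3 rose (median -0.25). In V16D cells in full serum, enzalutamide lowered 33 of the 45 others and 12 of the mitosis genes by counts (medians -0.15 and -0.070). The differences between these lists were not tested, and the lists were chosen with earlier results of these data known.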

How the data were processed

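Poly(A) RNA was sequenced with a strand-specific kit as single reads of 50 bases. The authors aligned reads to hg19 with TopHat2 2.0.9 and deposited 2 tables per sample: read counts per gene from HTSeq, whose strand setting is not given in the sources used here, and FPKM per transcript from Cufflinks 2.1.1. FPKM of the 43497 RefSeq transcripts were summed by gene symbol here, and rows of HTSeq that name no gene were left out.

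The 45 genes and the other lists were chosen with earlier results of these data known. Groups were taken from the sample labels. Counts were tested with edgeR 4.0.16 (quasi-likelihood, TMM scaling, filterByExpr with a minimum count of 10 and a total of 15), fitted on the samples of each comparison. FPKM were tested as log2(FPKM + 1) with limma 3.58.1 (trend), keeping genes with at least 1 FPKM in at least 3 samples, so that fold changes of low genes are understated. Adjusted p-values are Benjamini-Hochberg over all genes tested, two-sided, with a threshold of 0.05. The scripts were tested on simulated data. Alternatives were DESeq2 1.42.0, its size factors in edgeR, no filter, a replicate block, all groups of a serum in one fit, limma for full serum, a pseudocount of 0.1, median-ratio rescaling, and leaving out each replicate.

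MCM2, CDC6, CDT1, E2F1, PCNA, RRM2, TYMS and CCNE2 were to be named in each comparison, then the called gene with the largest change in each role, then up to 5 called against the majority. Other members were named after their values were seen. Gene coordinates are from GENCODE mapped to GRCh37.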

Additional observations from a re-analysis of the deposited data

Results flagged for a closer look

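These results were singled out because the effect of 1 treatment differed between 2 settings by a test of the difference itself, an interaction term over all genes with Benjamini-Hochberg adjustment.

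The effect of enzalutamide in full serum differed between MR49F and V16D cells for 2 of the 45 replication genes by counts, DUT (0.44 on the log2 scale) and RRM2 (0.19). That is a smaller share than the 6.95% of all genes called, and 0 to 7 genes were called when 1 replicate was left out. In MR49F cells it differed between stripped and full serum for 41 genes by FPKM (34.1% of all genes called), most for CDC6 (1.52) and GMNN (1.35), and serum and experiment cannot be told apart.

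The effect of enzalutamide with JQ-1 minus that without JQ-1 was called for 4 genes by counts (0.895% of all genes, and 3 to 7 genes when 1 replicate was left out), most for GMNN (-1.42) and MCM3 (-1.36), and for 39 genes by FPKM (19.2% of all genes), most for CDC6 (-1.22) and GMNN (-1.05). For DHT it was called for 22 genes by counts (12.3% of all genes), most for ORC1 (-2.42), which was too low with JQ-1 to be tested there, and GMNN (-2.15), and for 44 genes by FPKM (48% of all genes), most for GMNN (-1.50) and CDC6 (-1.47).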

How the results depend on the processing

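All values here are counts of the 45 genes called, unless a log2 change is named. Of the recomputed counts of calls, 270 kept their direction and stayed within 1.5 times, 29 moved further and 5 changed direction. Of the values of single genes, 3595 kept direction and side of the threshold, 222 lost the call, 27 gained it and 34 changed sign. Same-numbered replicates of compared groups deviated together with a correlation of -0.18 to 0.18 over 33 pairs, so the numbers were not taken as pairs. With a replicate block, all 25 counts stayed within 1.5 times: 36 genes were called for enzalutamide in V16D and 15 in MR49F cells in full serum, 43 for DHT by FPKM, and 17 (8 higher, 9 lower) for DHT with JQ-1 against JQ-1 by FPKM, where the majority changed side.

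With limma on FPKM, 4 genes were called for enzalutamide in MR49F cells in full serum and 1 for the difference between lines. With DESeq2 the counts in stripped serum gave 12 calls for enzalutamide, 6 for DHT against enzalutamide, 0 for enzalutamide with JQ-1 against JQ-1 (TYMS was the call lost), 2 for DHT with JQ-1 against JQ-1 and 14 for the change of the DHT effect with JQ-1. Without a filter there were 7 calls for the change of the enzalutamide effect with JQ-1 by counts and 2, both lower, for enzalutamide with JQ-1 against JQ-1 by FPKM. TYMS changed sign for DHT by counts without a filter (0.023) and with all groups in one fit (0.0028). After median-ratio rescaling of FPKM, MCM2 did so for enzalutamide with JQ-1 against JQ-1 (0.0089), as did PCNA (0.045) and TYMS (0.028) for DHT with JQ-1 against JQ-1. The cause was not tested.

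When 1 replicate was left out, calls ranged from 4 to 28 for enzalutamide in MR49F cells in full serum, 0 to 7 for the difference between lines, and 13 to 25 for enzalutamide in stripped serum by counts. They ranged from 0 to 1 by counts and 1 to 4 by FPKM for enzalutamide with JQ-1 against JQ-1, from 3 to 6 and 13 to 17 for DHT with JQ-1 against JQ-1, and from 3 to 7 for the change of the enzalutamide effect with JQ-1 by counts. Log2 changes that crossed 0 were those of CCNE2 between the lines (-0.068 to 0.091), TYMS in the difference of enzalutamide effects between lines (-0.081 to 0.043), and by counts TYMS with DHT (-0.12 to 0.21) and CDT1 for DHT against enzalutamide (-0.076 to 0.38). For enzalutamide with JQ-1 against JQ-1 by counts they were MCM2 (-0.28 to 0.0069), E2F1 (-0.14 to 0.37), RRM2 (-0.087 to 0.074) and CCNE2 (-0.18 to 0.011), and by FPKM MCM2 (-0.073 to 0.023), E2F1 (-0.025 to 0.035) and RRM2 (-0.012 to 0.039). For DHT with JQ-1 against JQ-1 they were PCNA (-0.053 to 0.14) and TYMS (-0.25 to 0.040) by counts and PCNA (-0.062 to 0.0061) by FPKM. For the change of a ligand effect with JQ-1 by counts they were CCNE2 with enzalutamide (-0.023 to 0.30), and TYMS (-0.34 to 0.018) and CCNE2 (-0.050 to 0.18) with DHT.

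The small share of reads counted on genes limits the counts in stripped serum, where 1032 to 3649 reads per sample fell on the 45 genes.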
